A study of Mus musculus with 6 samples.

Results

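The genes described here are Trp53, which encodes the transcription factor p53, its inhibitor gene Mdm2 and 8 genes that p53 is known to activate: Plk2, Btg2, Ccng1, Gadd45a, Phlda3, Sesn2, Trp53inp1 and Zmat3. All 10 were found by symbol among the 49585 Ensembl genes of the deposited count files, and 9 of them passed a filter on low counts that left 14785 genes. Phlda3 did not pass. Plk2 and Btg2 were chosen by their measured values, because both are higher in CD38 pos cells. Their difference between the populations is therefore a description and carries no test.

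The study compared haematopoietic stem cells (HSCs) of untreated C57BL/6 mice aged 8 to 16 weeks, sorted from bone marrow into a CD38 pos and a CD38 neg population, which the sorting protocol describes as high and low for CD38. CD38 is a surface enzyme that consumes NAD. All 6 libraries came from cells gated as lineage-negative, positive for Kit, Sca-1, CD150 and CD201, and negative for CD48 and CD34. Each library pooled the cells of 10 mice, and no animal carried a named transgene or deletion. There were 3 libraries per population, matched into 3 pairs by the series' design text, which does not say whether a pair shared mice.

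The protein p53 is a sensor of DNA damage and other stress. When it is stabilised it switches on genes that pause the cell cycle, repair DNA or kill the cell, and one of its targets, Mdm2, marks p53 for destruction and so closes a feedback loop. In HSCs p53 is known for its part in quiescence and in the response to radiation. Several of its targets, Plk2 and Btg2 among them, also respond to growth factors and other signals that do not need p53.

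Total counts ran from 16771180 to 18558610 per library. Levels are given as CPM, the reads of a gene relative to the library total after TMM scaling, so 3 reads, taken as the floor, were worth 0.166 to 0.183 CPM. The transcripts of 2 markers gated as negative were present in every library, with Cd34 at 203.5 to 290.7 CPM and Cd48 at 53.5 to 143.5 CPM. Of the markers gated as positive, Kit was at 109.7 to 556.1 CPM and Ly6a, which encodes Sca-1, at 61.4 to 146 CPM. Procr, which encodes CD201, was at 33.2 to 67.5 CPM and Slamf1, which encodes CD150, at 22.2 to 50.4 CPM. Cd38 itself was at 37.0, 46.3 and 58.3 CPM in CD38 pos and 24.2, 35.6 and 23.9 CPM in CD38 neg replicates 1, 2 and 3. A list of 14 granulocyte and monocyte genes took 8.22% to 15.8% of counts in CD38 pos and 9.25% to 13.4% in CD38 neg libraries. Mitochondrially encoded genes took 1.44% to 4.28% in CD38 pos and 3.68% to 4.43% in CD38 neg libraries. These are bulk samples, so fewer cells of a type and less RNA per cell cannot be told apart in any value below.

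The promoters of Plk2 and Btg2 are shown because both genes were higher in CD38 pos libraries and both windows held the same motif. RefSeq promoters on GRCm38.p6 were matched for 8 of the 10 genes. Each window is the 250 bases before the annotated start, read 5′ to 3′ on the gene's strand. Capitals mark the cAMP response element TGACGTCA, the site of CREB and ATF factors. The Plk2 window is chr13:110394794-110395043, plus strand, and the Btg2 window is chr1:134079156-134079405, minus strand.
Plk2: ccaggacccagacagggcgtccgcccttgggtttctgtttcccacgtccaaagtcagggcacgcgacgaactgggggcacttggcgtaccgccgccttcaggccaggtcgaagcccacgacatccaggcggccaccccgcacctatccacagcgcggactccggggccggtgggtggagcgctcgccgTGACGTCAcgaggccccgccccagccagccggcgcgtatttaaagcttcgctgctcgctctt
Btg2: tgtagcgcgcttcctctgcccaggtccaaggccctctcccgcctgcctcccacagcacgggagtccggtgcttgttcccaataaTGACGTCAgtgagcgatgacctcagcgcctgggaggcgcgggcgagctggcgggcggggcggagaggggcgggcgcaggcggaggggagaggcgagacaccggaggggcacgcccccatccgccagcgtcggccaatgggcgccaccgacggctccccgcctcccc

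The element lay 62 to 55 bases before the start in Plk2 and 166 to 159 bases before it in Btg2. It was found in 2 of the 8 windows and in 1.55% of the 32851 windows of that length in the RefSeq table, on either strand. The p53 half-site consensus was found in 4 of the 8 windows and in 7.13% of all windows, and in neither Plk2 nor Btg2. The AP-1 site (TGACTCA or TGAGTCA, bound by Fos and Jun) was in 0 of the 8 and 4.46% of all windows, and the CArG box bound by SRF in 0 of the 8 and 1.47%. None of these motifs overlapped another in the 8 windows. Other p53 sites can lie outside a window of this size, as the one in the first intron of Mdm2 does, so a match or its lack says only what these letters are.

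The 4 p53 half-sites are shown in capitals, since their windows belong to members that were not chosen for their level.
Trp53: GGACTTGCCC
Mdm2: GAACTTGCCT
Ccng1: GGGCAAGCCT
Gadd45a: GGGCTAGCCC

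They lay 75 to 66 bases before the start in Trp53, 186 to 177 in Mdm2, 185 to 176 in Ccng1 and 40 to 31 in Gadd45a. Because Plk2 and Btg2 shared the cAMP response element, the other genes with it in their window were counted, a choice made after the match was seen. Of 303 such genes tested, 9 (2.97%) had an unadjusted p under 0.05 in edgeR's quasi-likelihood test, against 5.08% of all genes tested. Another count gave 28 of the 303 (9.24%) higher in CD38 pos in all 3 pairs, against 13.2% of all genes, and their median log2 fold change was -0.04, against 0.00 for all genes. The share higher in all pairs was thus lower than that of all genes.

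The level of each gene per length was compared first, as CPM per kilobase of the longest annotated transcript, averaged over the 6 libraries. Trp53 (52.4) and Ccng1 (49.5) were the most abundant, followed by Mdm2 (34.2), Btg2 (23.3) and Plk2 (10.4). Lower levels per kilobase were found for Gadd45a (4.2), Sesn2 (2.86), Trp53inp1 (2.69), Phlda3 (0.382) and Zmat3 (0.375). The ranges over libraries of neighbours in this order overlapped, except for Trp53inp1 and Phlda3, where the lowest library of the first (1.95) lay above the highest of the second (0.731). Plk2 ranged from 3.13 to 24.4 CPM per kilobase and so overlapped both Btg2 (15.5 to 28.4) and Gadd45a (3.83 to 4.90).

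Trp53 (ENSMUSG00000059552, GRCm38 chromosome 11, 69580359 to 69591873, plus strand) was at 187.8, 153.1 and 120.2 CPM in CD38 pos replicates 1, 2 and 3, and at 167.5, 212.2 and 189.0 CPM in their CD38 neg partners. It was lower in CD38 pos in pairs 2 and 3 and higher in pair 1, and the groups overlapped. Its fitted log2 fold change was -0.32 (SE 0.21, 95% interval -0.76 to 0.12), with an edgeR adjusted p of 0.929 and an unadjusted p of 0.144.

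Mdm2 (ENSMUSG00000020184, chromosome 10, 117688875 to 117710758, minus strand), which encodes the ubiquitin ligase that removes p53, was at 112.2, 126.6 and 134.0 CPM in CD38 pos and 110.9, 76.2 and 86.0 CPM in CD38 neg replicates 1, 2 and 3. Every CD38 pos library lay above every CD38 neg library, although pair 1 differed by 0.02 on the log2 scale and pairs 2 and 3 by 0.73 and 0.64. Groups that do not overlap in this direction were found for 3.33% of all genes tested. The fitted log2 fold change was 0.46 (SE 0.20, 95% interval 0.03 to 0.89), with an unadjusted p of 0.0370 and an adjusted p of 0.926 in edgeR. Mdm2 thus did not pass the threshold of 0.05 on adjusted p-values, which 0.0135% of all genes (2 of 14785) passed. Without the replicate block 0 genes passed, and 417 had an unadjusted p under 0.05.

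**Figure D1:**
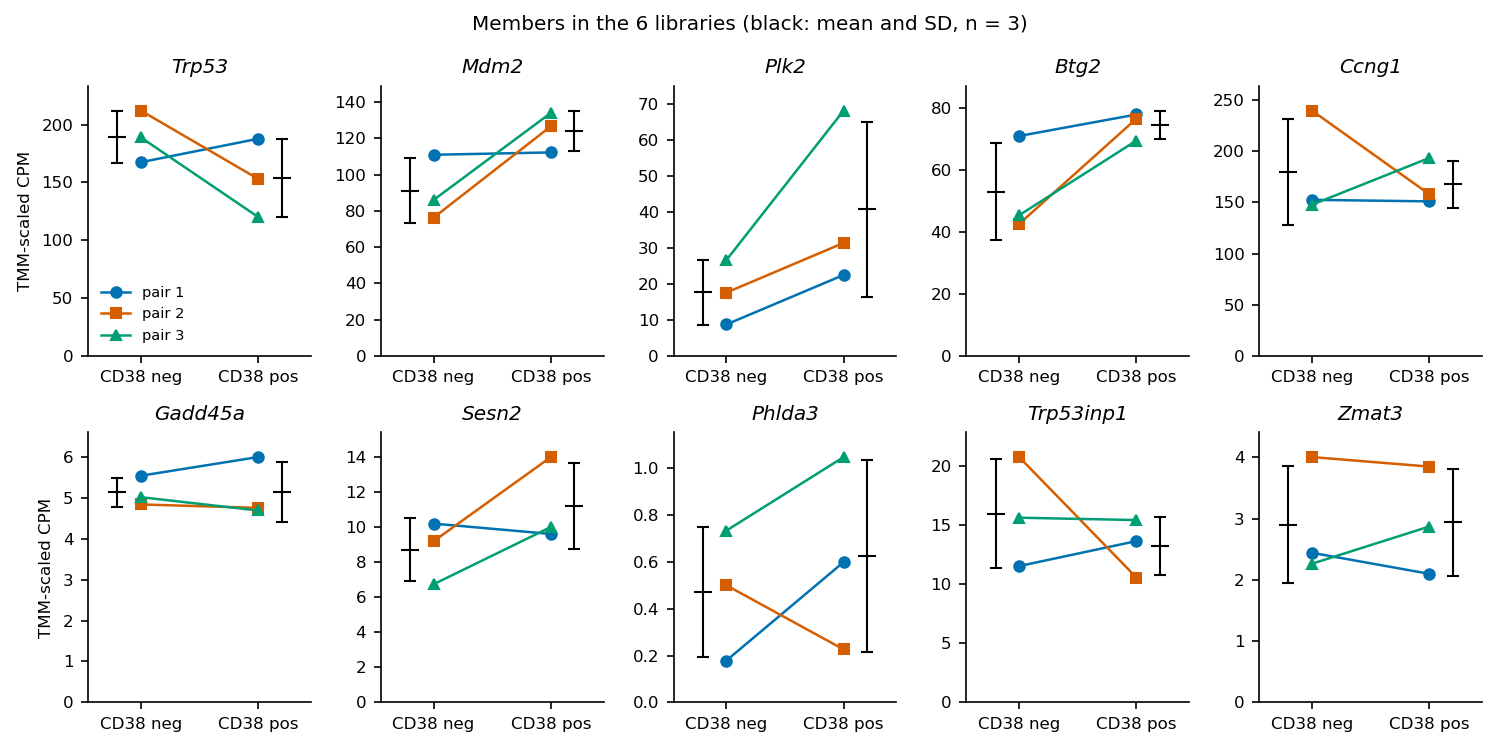
TMM-scaled CPM (linear axes from 0) of the 10 genes in CD38 neg and CD38 pos libraries; coloured lines join the 2 libraries of a pair, and black marks give the mean and SD of each population (n = 3). Plk2 is higher in CD38 pos in each pair and has the largest ratio of its highest to its lowest library (7.80), while Gadd45a stays between 4.69 and 6.00 CPM.

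Plk2 (ENSMUSG00000021701, chromosome 13, 110395046 to 110400844, plus strand) encodes polo-like kinase 2, a kinase of centriole duplication and the stress response that is induced early after stimulation. It had 376, 556 and 1238 reads in CD38 pos replicates 1, 2 and 3 and 147, 317 and 436 reads in their partners, or 22.5, 31.5 and 68.3 against 8.75, 17.6 and 26.7 CPM. CD38 pos replicate 3 was far above all other libraries and CD38 neg replicate 1 below them. The groups overlapped, because CD38 pos replicate 1 lay below CD38 neg replicate 3, yet Plk2 was higher in CD38 pos within each pair, by 1.35, 0.83 and 1.35 on the log2 scale. The means were 40.8 ± 24.3 CPM (SD, n = 3) in CD38 pos and 17.7 ± 8.95 CPM (SD, n = 3) in CD38 neg cells, and the fitted difference was 2.27-fold (log2 fold change 1.18, SE 0.22).

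Both populations showed the same order of pairs for Plk2, lowest in pair 1 and highest in pair 3, so the spread within a population was larger than that of the paired differences. The highest library was 7.80 times the lowest, against 1.28 to 2.08 times for the other 8 genes that passed the filter. A model with no replicate block gave 1.21 with a wider SE of 0.45.

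Btg2 (ENSMUSG00000020423, chromosome 1, 134075170 to 134079120, minus strand) encodes an antiproliferative protein that recruits the enzymes shortening the tails of mRNAs. It was at 78.0, 76.7 and 69.6 CPM in CD38 pos and 71.0, 42.6 and 45.4 CPM in CD38 neg replicates 1, 2 and 3. The CD38 pos libraries were close to each other, and of the CD38 neg libraries replicate 1 stood with them, above CD38 pos replicate 3, so the groups overlapped. The paired log2 differences were 0.13, 0.84 and 0.61. Means were 74.7 ± 4.53 CPM (SD, n = 3) against 53.04 ± 15.7 CPM (SD, n = 3), with a fitted log2 fold change of 0.53 (SE 0.20). Plk2 and Btg2 both stood higher in CD38 pos in all 3 pairs, a direction that the choice of these genes fixes. Among the other 7 genes tested, Mdm2 did so, where 13.2% of all genes were higher and 11.3% lower in all 3 pairs.

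**Figure D2:**
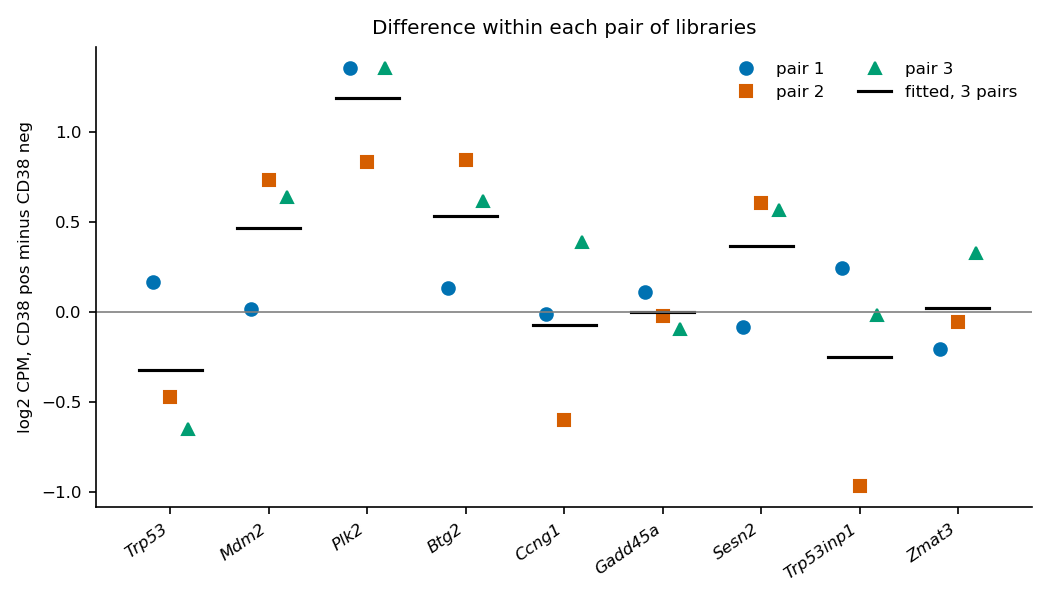
Log2 CPM of CD38 pos minus CD38 neg within each pair (y axis) for the 9 genes that passed the filter (x axis); symbols are pairs, and black bars are the fitted log2 fold changes. Plk2 lies at 0.83 or more in each pair, whereas Mdm2, Btg2 and Sesn2 lie between -0.09 and 0.13 in pair 1 and between 0.56 and 0.84 in pairs 2 and 3.

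Ccng1 (ENSMUSG00000020326, chromosome 11, 40748552 to 40755311, minus strand), the cyclin G1 gene and a classical p53 target, was at 151.1, 158.1 and 193.5 CPM in CD38 pos and 152.6, 239.9 and 147.8 CPM in CD38 neg replicates 1, 2 and 3. One library, CD38 neg replicate 2, stood above the rest, and the pairs differed in sign. The log2 fold change was -0.08 (SE 0.21, 95% interval -0.54 to 0.38; edgeR adjusted p = 0.975).

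Sesn2 (ENSMUSG00000028893, chromosome 4, 132492032 to 132510501, minus strand) encodes sestrin 2, a stress protein that restrains mTORC1. It was at 9.59, 14.0 and 9.99 CPM in CD38 pos and 10.2, 9.17 and 6.73 CPM in CD38 neg replicates 1, 2 and 3, with overlapping groups. Its paired log2 differences, -0.09, 0.60 and 0.56, had the order of pairs seen for Mdm2, and the fitted value was 0.36 (SE 0.27, 95% interval -0.22 to 0.95; edgeR adjusted p = 0.932). Gm12981, an annotated noncoding gene on the same strand, overlaps the locus and had 2 reads in all libraries together.

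Gadd45a (ENSMUSG00000036390, chromosome 6, 67035096 to 67037457, minus strand), a growth arrest and DNA damage gene, was the steadiest, at 6.00, 4.75 and 4.69 CPM in CD38 pos and 5.54, 4.84 and 5.01 CPM in CD38 neg replicates 1, 2 and 3. Fitted over the pairs, it differed by -0.00 on the log2 scale (SE 0.30; adjusted p = 1.0 in edgeR), and its 95% interval, -0.65 to 0.64, reached from 0.639-fold to 1.56-fold. A transcript on the other strand, E230016M11Rik, overlaps Gadd45a and had 13 to 36 reads per library against 82 to 100 reads for Gadd45a. The strand setting of the counting is not given in the sources used here, so reads of the 2 genes may be mixed.

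Trp53inp1 (ENSMUSG00000028211, chromosome 4, 11156431 to 11174379, plus strand), whose product takes part in p53-driven cell death and autophagy, was at 13.7, 10.6 and 15.4 CPM in CD38 pos and 11.6, 20.8 and 15.7 CPM in CD38 neg replicates 1, 2 and 3. Its log2 fold change of -0.25 (SE 0.28, 95% interval -0.85 to 0.35; edgeR adjusted p = 0.943) came from pair 2, at -0.97, and was 0.10 without that pair. Zmat3 (ENSMUSG00000027663, chromosome 3, 32334792 to 32366014, minus strand), which encodes an RNA-binding p53 target that affects splicing, was at 2.10, 3.85 and 2.87 CPM in CD38 pos and 2.44, 4.0 and 2.26 CPM in CD38 neg libraries. Both libraries of pair 2 were its highest, and the log2 fold change was 0.02 (SE 0.37, 95% interval -0.77 to 0.81; edgeR adjusted p = 0.994).

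Phlda3 (ENSMUSG00000041801, chromosome 1, 135766119 to 135769136, plus strand), an inhibitor of AKT signalling, had 10, 4 and 19 reads in CD38 pos and 3, 9 and 12 reads in CD38 neg replicates 1, 2 and 3. These counts, 0.179 to 1.048 CPM, did not pass the filter, and no test was made. Of the 7 genes tested other than Plk2 and Btg2, 0 passed an adjusted p of 0.05, and 1, Mdm2, had an unadjusted p under 0.05 in edgeR. At the unadjusted level 2.47% of all genes tested were higher in CD38 pos.

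The 9 genes varied in different ways over the 6 libraries. Plk2 and Btg2, both higher in CD38 pos, had a Pearson correlation of log2 CPM of 0.12 (Spearman 0.09, 6 libraries). CD38 neg replicate 1, for example, had the least Plk2 (8.75 CPM) and the most Btg2 (71.0 CPM) of the CD38 neg libraries. The Pearson value of Mdm2 was highest with Btg2 (Pearson 0.91, Spearman 0.60), while its Spearman value was higher with Plk2 (Pearson 0.43, Spearman 0.71) and Sesn2 (Pearson 0.65, Spearman 0.66). Trp53 and Mdm2 ran opposite to each other (Pearson -0.86, Spearman -0.94): the library with the least Trp53, CD38 pos replicate 3, had the most Mdm2, and the library with the most Trp53, CD38 neg replicate 2, had the least. These were the highest and the lowest of 36 Pearson values among the 9 genes. The libraries share pairs and populations, so the values describe these libraries only.

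**Figure D3:**
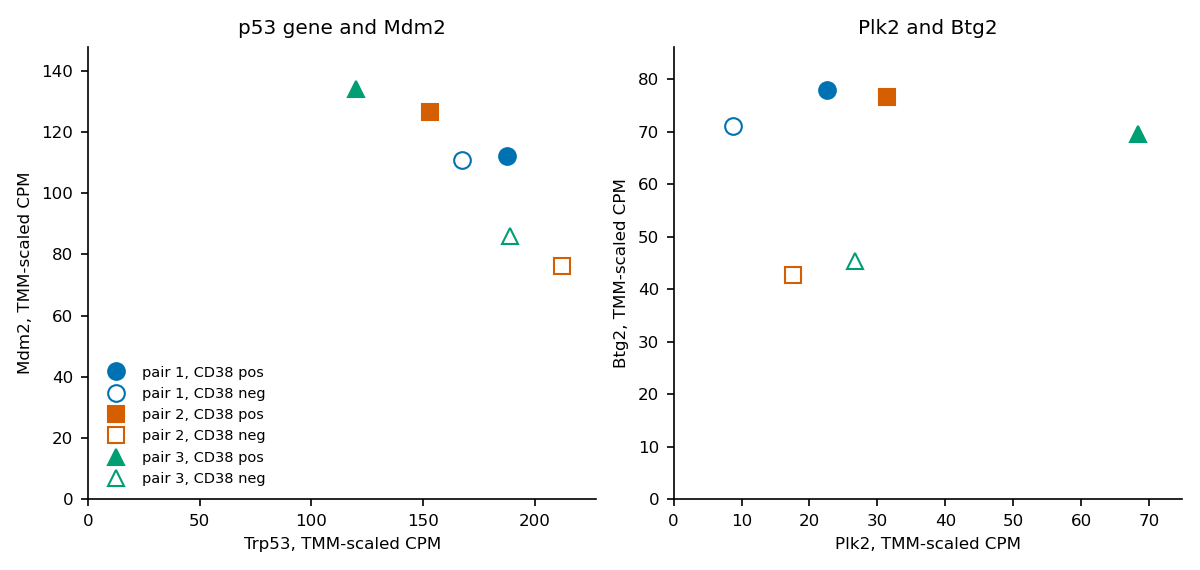
TMM-scaled CPM of Mdm2 against Trp53 (left) and of Btg2 against Plk2 (right) in the 6 libraries, filled for CD38 pos and open for CD38 neg, with a symbol per pair. Mdm2 is highest (134.0 CPM) where Trp53 is lowest (120.2 CPM) and lowest (76.2 CPM) where Trp53 is highest (212.2 CPM), while Btg2 shows no such order with Plk2.

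Among 10371 other genes with a mean of at least 5 CPM, those most like Plk2 by Pearson correlation of log2 CPM over the 6 libraries were Gimap4, Stxbp6, Klrb1c, Tm4sf1 and Gm7964, at 0.969 to 0.973. Gimap4 encodes a small GTPase of lymphocytes, Klrb1c the NK1.1 receptor and Tm4sf1 an endothelial membrane protein. Stxbp6 was at 7.25, 7.86 and 16.0 CPM in CD38 pos and 3.16, 5.67 and 5.87 CPM in CD38 neg replicates 1, 2 and 3. Like Plk2, it was highest in CD38 pos replicate 3 and lowest in CD38 neg replicate 1. Among those nearest to Btg2 were Cyb561a3, Ggta1, Trim11 and Xpc, at 0.989 to 0.996. Xpc encodes a DNA damage recognition protein and is itself a p53 target. At the lower cut of 0.9, 47 of the 10371 genes exceeded it for Plk2 and 222 for Btg2. The named genes are the top of a ranking over 6 libraries, so their values are a description only.

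Family relatives of the members were set beside them. Plk2 and Btg2 were chosen for being higher in CD38 pos, so a gap to their paralogs follows in part from that choice. Of the polo-like kinases, the mitotic kinase gene Plk1 had a log2 fold change of 0.35 (SE 0.23) and the centriole kinase gene Plk4 one of 0.34 (SE 0.20). Plk1 was higher in pairs 1 and 2 and lower in pair 3, at 0.22, 1.04 and -0.22. Plk3, another early response kinase and p53 target, was at 0.222 to 1.103 CPM, with 16, 18 and 20 reads in CD38 pos and 14, 4 and 13 reads in CD38 neg libraries. The fitted value for Plk3 was 0.84 (SE 0.59; adjusted p = 0.930 in edgeR). Plk5 had at most 11 reads in a library and was not tested.

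Of the BTG and TOB genes, Btg1 had a log2 fold change of 0.11 (SE 0.23), Tob1 one of -0.13 (SE 0.26) and Tob2 one of -0.25 (SE 0.25). Btg1 was at 16.9 to 19.9 CPM in CD38 pos and 16.9 to 17.4 CPM in CD38 neg libraries. Btg3 had at most 7 reads in a library. The other GADD45 genes, Gadd45b and Gadd45g, were higher in CD38 pos in each pair, as 3 of the 19 relatives tested (15.8%) and 13.2% of all genes were. They had fitted values of 0.60 (SE 0.29) and 0.50 (SE 0.25) on the log2 scale, each with an edgeR adjusted p of 0.926. Zmat5, a relative of Zmat3, was lower in pairs 2 and 3, at -0.75 and -0.74, and at 0.09 in pair 1. The fit put Zmat5 at -0.47 (SE 0.23). Phlda2, an imprinted relative of Phlda3, was lower in all 3 pairs. It was at 3.66, 3.62 and 6.90 CPM in CD38 pos and 7.80, 7.23 and 10.5 CPM in CD38 neg replicates 1, 2 and 3, so that the groups did not overlap (log2 fold change -0.89, SE 0.29, edgeR adjusted p = 0.925). Of the 14785 genes tested, 472 had groups that did not overlap in this direction. Of the 19 relatives tested, 0 passed an adjusted p of 0.05 and 1 (5.26%), Phlda2, had an unadjusted p under 0.05, near the 5.08% of all genes.

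**Figure D4:**
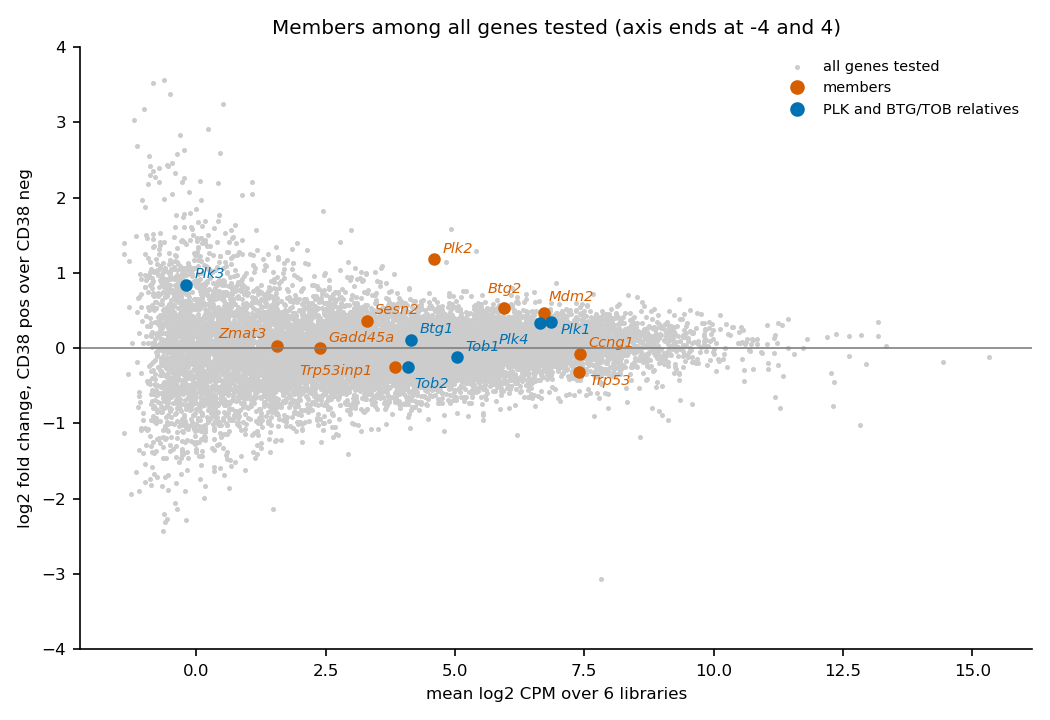
Fitted log2 fold change of CD38 pos over CD38 neg (y axis) against mean log2 CPM (x axis) for the 14785 genes tested in grey, with the 9 genes that passed the filter in orange and PLK and BTG/TOB relatives in blue; 5 genes lie beyond the y axis. Plk2 lies at 1.18, against 0.35 for Plk1, 0.34 for Plk4 and 0.84 for the low Plk3, and Btg2 at 0.53, against -0.25 to 0.11 for Btg1, Tob1 and Tob2. Plk2 and Btg2 were chosen for being higher in CD38 pos, and their relatives were not.

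Genes that control p53 were compared next. Of 22 listed, 19 were tested, 9 with a positive and 10 with a negative log2 fold change, and their median was -0.03 against 0.00 for all genes. None of the 19 passed an adjusted p of 0.05 or had an unadjusted p under 0.05 in edgeR, and the same held in DESeq2. The smallest unadjusted p-values belonged to the DNA damage kinase genes Chek1 and Atr, the ribosomal protein gene Rpl11 and the p53-regulating kinase gene Trp53rka. Their log2 fold changes were 0.33 (SE 0.20), -0.39 (SE 0.25), -0.21 (SE 0.19) and -0.26 (SE 0.24) in that order. The groups did not overlap for Chek1, which was higher, and for Atr, which was lower in CD38 pos. Of the 14785 genes tested, 493 were higher and 472 lower without overlap. Mdm4, the partner of Mdm2, was lower in all 3 pairs by a small amount (log2 fold change -0.20, SE 0.22). Cdkn2a and the p53 family genes Trp63 and Trp73 had 0 reads in each of the 6 libraries. This allows a level of up to 0.183 CPM, provided that their reads were counted like those of other genes. The early response gene Jund and 7 mitochondrially encoded genes also had 0 reads in all 6 libraries. Whether a 0 comes from the counting was not tested.

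Other target genes of p53 numbered 60, of which 53 were tested and 7 did not pass the filter. Of the 53, 0 passed an adjusted p of 0.05 in edgeR, and 3 (5.66%) had an unadjusted p under 0.05, against 5.08% of all genes. Pmaip1, which encodes the death protein NOXA, was at 17.7, 11.7 and 23.9 CPM in CD38 pos and 9.17, 7.95 and 11.3 CPM in CD38 neg replicates 1, 2 and 3. All of its CD38 pos libraries lay above all CD38 neg libraries (log2 fold change 0.86, SE 0.25, edgeR unadjusted p = 0.00390, adjusted p = 0.888). The same held for 4 of the 53 genes and for 3.33% of all genes tested. Dram1, a lysosomal regulator of autophagy, was higher by 0.54 (SE 0.22) and Polk, a DNA polymerase that copies damaged DNA, lower by a log2 fold change of -0.70 (SE 0.28). Ddit4, an inhibitor of mTORC1, was at -1.02 (SE 0.54), with -2.13 in pair 2 and -0.23 and -0.26 in pairs 1 and 3.

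Of the best known targets, Cdkn1a, which encodes the cell cycle inhibitor p21, was at 7.91, 7.47 and 6.73 CPM in CD38 pos and 6.37, 5.89 and 4.59 CPM in CD38 neg libraries. The 2 groups did not overlap, as for 3.33% of all genes tested in this direction, with a fitted value of 0.40 (SE 0.28, adjusted p = 0.930 in edgeR). Bax, a pore-forming death gene, had a log2 fold change of -0.04 (SE 0.21), and Bbc3, which encodes PUMA, one of -0.76 (SE 0.59) at 0.489 to 2.22 CPM. In the list as a whole 30 genes had positive and 23 negative values with a median of 0.05, against 0.00 for all genes. There were 11 genes (20.8%) higher in all 3 pairs, where 13.2% of all genes were, and 3 lower. The pair medians of the list were 0.06, 0.18 and 0.13.

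**Figure D5:**
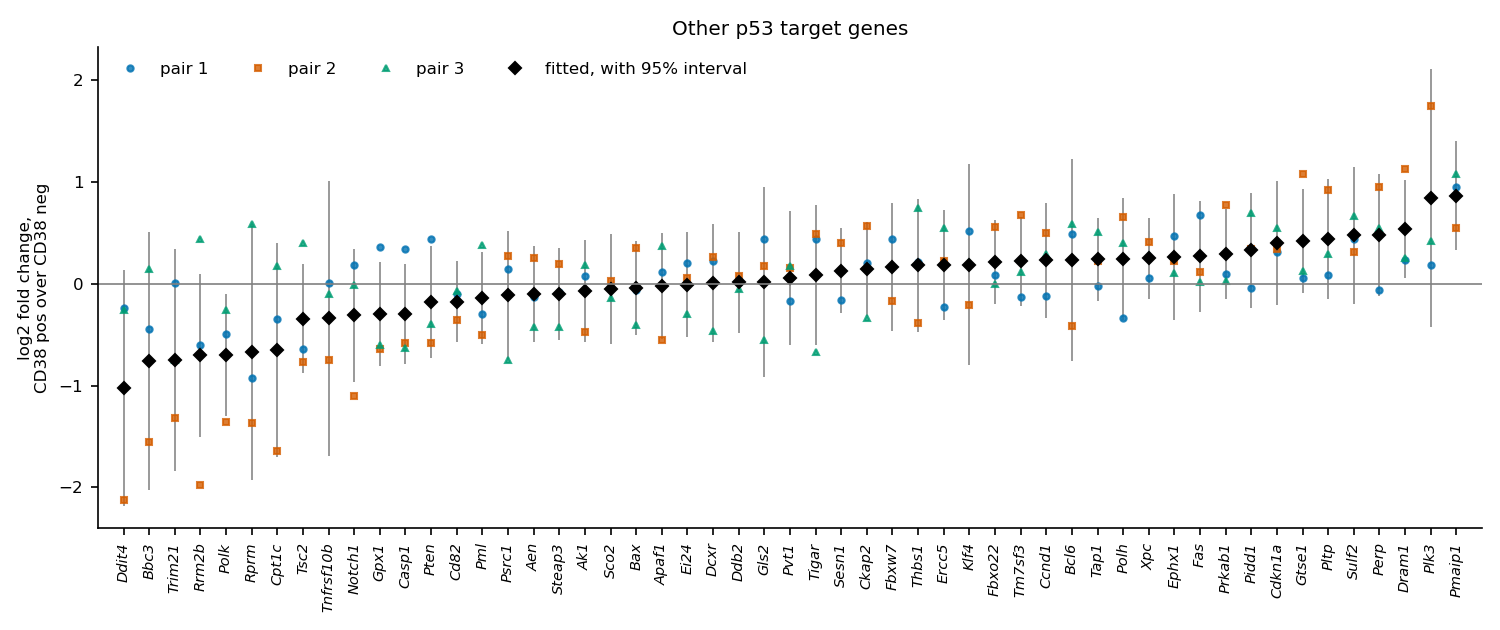
Fitted log2 fold change of CD38 pos over CD38 neg (black diamonds, with 95% intervals in grey) and the difference within each pair (coloured symbols) for the 53 other p53 target genes tested, ordered by fitted value. Values run from -1.02 for Ddit4 to 0.86 for Pmaip1, and the intervals of 3 genes, Pmaip1, Dram1 and Polk, leave out 0.

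Because Plk2 and Btg2 also answer to early stimuli, early response genes were set beside them. Of 26 tested, 0 passed an adjusted p of 0.05 and 2 (7.69%) had an unadjusted p under 0.05 in edgeR, Fos and Atf3, where 5.08% of all genes did. Fos, an AP-1 transcription factor gene, was at 66.1, 51.3 and 84.7 CPM in CD38 pos and 26.8, 23.4 and 31.7 CPM in CD38 neg replicates 1, 2 and 3 (log2 fold change 1.28, SE 0.20; adjusted p = 0.0535). Atf3, a stress factor gene of the CREB and ATF family, was at 2.04, 1.92 and 4.03 CPM in CD38 pos and 1.55, 0.612 and 0.734 CPM in CD38 neg libraries (log2 fold change 1.47, SE 0.51; adjusted p = 0.925). Both had groups that did not overlap, as 3 of the 26 genes and 3.33% of all genes tested had in this direction. Fos, like Plk2, was higher by a similar amount in each pair, at 1.30, 1.13 and 1.41. The list did not share this: its pair medians were -0.14, -0.12 and 0.65, and the next smallest p-values were those of Rhob (-0.56, SE 0.38) and Junb (0.30, SE 0.22). Egr1 and Ier2, named after their values were seen, were at -0.01 and -0.26.

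Markers of other cells were summed for each library, and their part in these results was not tested. The 15 endothelial genes took 0.0174% to 0.0339% of counts in CD38 pos and 0.0202% to 0.0337% in CD38 neg libraries, and none was at 0 in all 6 libraries. Pecam1, Tie1, Egfl7 and Tek, at 344 to 1781 reads per library, weighed most in this sum. Their log2 fold changes were 0.31, -0.12, 0.00 and -0.54 in that order. The defining endothelial gene Cdh5 had 12, 5 and 5 reads in CD38 pos and 6, 2 and 0 reads in CD38 neg replicates 1, 2 and 3. It did not pass the filter, and the sum hardly reflects it. Within the list Ramp2 was at 2.40, 6.28 and 4.97 CPM in CD38 pos and 0.655, 1.22 and 0.978 CPM in CD38 neg libraries, and 5 of 12 genes tested were higher in all 3 pairs, where 13.2% of all genes were. The 15 stromal genes took 0.00476% to 0.0189% in CD38 pos and 0.00448% to 0.0139% in CD38 neg libraries, with 3 of 11 tested higher in all 3 pairs, beside the same 13.2%. Those 3 were Sparc (log2 fold change 1.82, SE 0.33), Fn1 (0.91, SE 0.26) and Ccn2, while 1, Col1a1, was lower in all 3 pairs (-0.69, SE 0.46). Ccn2 had 22, 19 and 33 reads in CD38 pos and 0 in each CD38 neg library. Cxcl12 had 2526, 205 and 2084 reads in CD38 pos and 1753, 397 and 422 reads in CD38 neg replicates 1, 2 and 3. It weighed most in the stromal sum except in CD38 pos replicate 2, where Fn1 had 259 reads. The 8 T and NK cell genes, which include Klrb1c, took 0.0145% to 0.0304% in CD38 pos and 0.0199% to 0.0290% in CD38 neg libraries. Nkg7 weighed most in this sum, at 2090 to 5231 reads per library against 125 to 361 for Klrb1c. The paired log2 differences were 0.76, -0.47 and -1.14 for Nkg7 and 0.76, 0.20 and 0.43 for Klrb1c, so the sum hardly reflects Klrb1c. B and plasma cell genes took 0.0348% to 0.0942% in CD38 pos and 0.129% to 0.340% in CD38 neg libraries.

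The share of mitochondrially encoded genes (37, of which 7 were at 0 in all libraries) differed by pair with the same signs as Trp53. It was 4.28%, 1.44% and 2.69% in CD38 pos and 3.68%, 3.74% and 4.43% in CD38 neg replicates 1, 2 and 3, higher in CD38 pos in pair 1 and lower in pairs 2 and 3. Mdm2, Btg2 and Sesn2 had their larger positive differences in those 2 pairs. The signs of the mitochondrial share were not particular to it. The granulocyte and monocyte share had log2 ratios of 0.335, -0.17 and -0.292 in pairs 1, 2 and 3. Those of the T and NK cell share were 0.603, -0.458 and -0.817, and those of the erythroid share 0.098, -0.593 and -0.443. The shares of the other cell type lists had other signs. The part of any of these shares, or of RNA quality, in the values of the 4 genes was not tested.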

How the data were processed

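The members, gene lists and tests were chosen with earlier results of these data known. The authors deposited raw counts per Ensembl gene for each of the 6 libraries. The submitters' processing notes name cutadapt, STAR and HTSeq 0.6.1p1 and the builds GRCm38 and mm10. The strand setting and the annotation release are not given in the sources used here. Symbols matched 49326 of 49585 identifiers, and positions and transcript lengths came from GENCODE M21 on GRCm38.

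Genes were kept with filterByExpr, scaled by TMM and tested in R 4.3.3 with edgeR 4.0.16 (quasi-likelihood F test) in a model of pair plus population, with Benjamini-Hochberg adjustment over 14785 genes and a threshold of 0.05. Log2 CPM used a prior count of 2. The replicate block follows the series' design text: after subtracting population means, the 2 libraries of pair 1 correlated at 0.34, of pair 2 at 0.12 and of pair 3 at 0.24. Libraries of a population differed beyond sampling noise. Whether each pool came from separate mice is not stated, so p-values measure the spread between these libraries. The procedure was tested on simulated data. DESeq2 1.42.0 and other settings were alternatives.

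Named genes were all members, the PLK and BTG/TOB relatives, from each list those past the threshold or up to 4 with the smallest unadjusted p-values, and the 5 genes most like Plk2 and like Btg2, of which 1 is not reported here. Other genes were named after their values were seen. Floors of 3 counts cover counting error only. The intervals of log2 fold changes come from the edgeR fit and also include the spread between libraries.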

Additional observations from a re-analysis of the deposited data

How the results depend on the processing

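Plk2 and Btg2 were higher in CD38 pos under all 9 alternatives each, with log2 fold changes of 1.09 to 1.35 and 0.36 to 0.73, both ranges set by leaving out a pair. For the 7 other genes tested, 55 of 63 alternative values kept their direction and missed the adjusted threshold, and 8 changed sign; the cause was not tested. Gadd45a, near 0 throughout, was at 0.0041 without the replicate block, 0.0013 in DESeq2, 0.0014 with DESeq2 size factors, 0.0025 with no filter and -0.0604 to 0.0441 when a pair was left out. Leaving out a pair gave -0.31 to 0.17 for Ccng1 and -0.50 to 0.10 for Trp53inp1, both positive without pair 2, and -0.13 to 0.14 for Zmat3, negative without pair 3. Leaving out a pair also gave -0.56 to -0.15 for Trp53 and 0.23 to 0.59 for Sesn2. Mdm2 ranged from 0.32 to 0.69, with adjusted p-values of at least 0.567.

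The count of genes past the threshold, 2, was 0 without the replicate block (417 at an unadjusted p under 0.05), 0 with unscaled totals (595), 11 in DESeq2, 7 with DESeq2 size factors, 80 with no filter on low counts, 13 with a mean of at least 10 counts and 2 to 41 when a pair was left out, 41 of them without pair 2 and 12 without pair 3. Of the other p53 targets, 3 had an unadjusted p under 0.05; this was 1 without the replicate block, 5 with no filter and 1 to 6 when a pair was left out, 6 without pair 1 or pair 3 and 1 without pair 2. The median of all genes moved by less than 0.1 under each scaling. Zmat3, with 35 to 72 reads, had a 95% interval of -0.77 to 0.81; how much of its width comes from depth was not tested.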
